A study of Arabidopsis thaliana with 24 samples.

Results

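The members described here are the MIR loci of Arabidopsis thaliana, annotated as genes from which microRNA precursors are transcribed. They were taken by name, as every row of the count table whose gene name begins with MIR followed by a digit. Whether each of them makes a microRNA was not tested. The rule found 175 loci among 33055 genes, and 80 of them were detected, meaning that their reads summed over the 24 libraries came to 10 or more. The samples were unfertilised pistils collected before the flowers opened, and 2 temperature regimes were applied from the onset of flowering: a normal ambient one (nAT, 21 °C by day and 18 °C at night), in which all plants had been raised, and a high ambient one (hAT, 28 °C by day and 24 °C at night). Wild-type Col-0, the phyB mutant (allele phyB-9), in which the photoreceptor phytochrome B, also a sensor of warmth, is lost, and 35S::PIF4, in which the viral 35S promoter drives the transcription factor PIF4, were each sampled at both temperatures with 4 replicates per group, giving 6 groups. Each mutant or transgenic genotype was a single line, all plants grew in long days, and the number of plants behind a replicate was not stated. Libraries were made from polyadenylated RNA, so the counts are of primary microRNA transcripts and of other polyadenylated RNA that covers a hairpin, and no mature microRNA was measured.

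A MIR gene is transcribed by RNA polymerase II into a capped and polyadenylated primary transcript that folds into a hairpin. In plants the nuclear enzyme DICER-LIKE1 (DCL1), helped by HYL1 and SERRATE, cuts the hairpin to a short duplex, one strand of which is loaded into ARGONAUTE1 (AGO1) and directs the cleavage or repression of messengers with a nearly complementary site. Because processing removes the primary transcript, its level depends on both transcription and processing. In flowers, miR156 acts on SPL transcription factors, miR160 and miR167 on AUXIN RESPONSE FACTORs, miR159 on the MYB33 group and miR172 on AP2-like factors.

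Mature sequences of the loci that the results turn on are shown first, read 5′ to 3′ as RNA from the RefSeq TAIR10.1 genome at the annotated coordinates, with the seed (bases 2 to 8) in capitals.
miR163 (from MIR163, chr1:24884359-24884382, plus strand): uUGAAGAGgacuuggaacuucgau
miR159b-3p (from MIR159B, chr1:6220813-6220833, plus strand): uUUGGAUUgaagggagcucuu
miR447b (from MIR447B, chr4:1535482-1535503, minus strand): uUGGGGACgagauguuuuguug
miR162a-3p (from MIR162A, chr5:2634936-2634956, minus strand): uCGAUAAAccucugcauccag
miR824-5p (from MIR824A, chr4:12625128-12625148, plus strand): uAGACCAUuugugagaaggga
miR395e (from MIR395E, chr1:26272786-26272806, minus strand): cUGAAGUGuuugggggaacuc
miR825 (from MIR825A, chr2:11159774-11159794, plus strand): uUCUCAAGaaggugcaugaac
miR838 (from MIR838A, chr1:28635-28655, plus strand): uUUUCUUCuacuucuugcaca
miR864-5p (from MIR864A, chr1:6740503-6740523, plus strand): uCAGGUAUgauugacuucaaa
miR156d-5p (from MIR156D, chr5:3456713-3456732, minus strand): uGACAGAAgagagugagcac
miR160b (from MIR160B, chr4:9888986-9889006, plus strand): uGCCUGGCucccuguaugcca
miR160c-5p (from MIR160C, chr5:19009158-19009178, minus strand): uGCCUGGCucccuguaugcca
miR167a-5p (from MIR167A, chr3:8108090-8108110, plus strand): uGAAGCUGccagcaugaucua
miR167b (from MIR167B, chr3:23406177-23406197, plus strand): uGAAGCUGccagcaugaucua
miR164b-5p (from MIR164B, chr5:287586-287606, plus strand): uGGAGAAGcagggcacgugca
The seed of miR156d-5p was annotated at 9 loci, of which 3 were detected, and that of miR395e at 6 loci, of which 1 was detected. The miR160 seed occurred at 3 loci, all detected. The miR167a-5p seed occurred at 3 loci, of which 2 were detected. The seeds of miR163, miR824-5p, miR825, miR838 and miR864-5p were each annotated at 1 locus. Since mature sequences within a seed group can be identical, as for miR160b and miR160c-5p and for miR167a-5p and miR167b here, the locus and not the mature product is what a count identifies.

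Target sites were looked for in spliced messengers as the ungapped stretch with the fewest mismatches to the full complement of the microRNA. Sites in 5 genes of the target lists are shown as DNA, with the bases opposite the seed in capitals.
SPL9 site for miR156d-5p (chr2:17589066-17589085, plus strand): gtgctctctctcTTCTGTCa
ARF17 site for miR160c-5p (chr1:29274189-29274209, plus strand): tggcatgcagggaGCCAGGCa
MYB33 site for miR159b-3p (chr5:1839579-1839599, plus strand): tggagctcccttcATTCCAAt
AGL16 site for miR824-5p (chr3:21180537-21180557, plus strand): tctcttctcacaaATGGTCTa
APS4 site for miR395e (chr5:17591121-17591141, minus strand): gagttcctccaaaCACTTCAt
The SPL9, ARF17 and AGL16 sites had 1 mismatch each, the APS4 site 2 and the MYB33 site 4, with a G opposite a U counted as a mismatch. Of 31342 genes searched, 0.0255% held a stretch at least as close for miR156d-5p as SPL9, 0.00638% for miR824-5p as AGL16 and 0.0766% for miR159b-3p as MYB33. A match describes the letters only.

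The libraries held between 18379748 and 30184035 counts, of which 1327 to 3165 fell in MIR loci. The Col-0 nAT libraries stood apart from the other 20: the mean length of the gene a read fell in was 1612 to 1804 bases there and 2065 to 2220 bases in the others. Their replicates were also compared in pairs by the chi-square of counts for each degree of freedom. It ranged from 3.17 to 61.5 among them, against at most 12.0 within any other group, so not every Col-0 nAT pair was far apart. The 3 pairwise comparisons that use Col-0 nAT share those libraries. The part of this length difference in their results was not tested. Values under a scaling that takes out a trend with gene length are given beside the counts of calls and beside some of the loci. For a locus shown without such a value, the effect of that scaling is not given here. All 6 pistil and ovule markers were above 1 CPM in every group, with a summed level of 370 to 495 CPM (counts scaled to library size with TMM factors), while 5 anther and tapetum markers summed to at most 1.23 CPM. The 3 pollen markers summed to 50.6 to 154 CPM, and were highest in Col-0 hAT at 144 to 154 CPM, where VGD1, a pectin methylesterase gene of the pollen tube, differed from Col-0 nAT by 1.94 (SE 0.27, adjusted p = 2.49e-07) and LAT52 by 0.09 (SE 0.12, adjusted p = 0.484). PIF4 was at 5.93 ± 0.311 CPM (mean ± SD, n = 4) in 35S::PIF4 nAT and 2.11 ± 0.644 CPM in Col-0 nAT, a log2 fold change of 1.46 (SE 0.18, adjusted p = 6.32e-08), and 0.93 with that second scaling. At hAT the difference was 0.86 (SE 0.17, adjusted p = 5.80e-04). PHYB was at 62.8 ± 1.97 CPM in phyB nAT and 79.5 ± 18.2 CPM in Col-0 nAT (-0.34, SE 0.11, adjusted p = 0.00481). The phyB allele is a point mutation, so this level is no check of the genotype.

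Detection was shallow. Of the 175 loci, 60 had no read in any library, 35 had 1 to 9 reads and 80 were detected, and 40 passed the filter on low counts and were tested. One count was worth 0.0316 to 0.0807 CPM depending on the library, and a library with no count at a locus allows a level of up to 0.0947 to 0.242 CPM, which covers counting error only. The median of the mean level was 0.308 CPM over the detected loci and 0.689 CPM over the tested ones, against 19.0 CPM over the 21312 genes tested. The loci were short as well as low, with a median of 146.5 bases over those tested against 1731 bases over all genes tested. Loci that passed the filter only through the group where they are high had to differ between groups, so counts over the 40 tested loci describe those loci and not all 175.

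**Figure D1:**
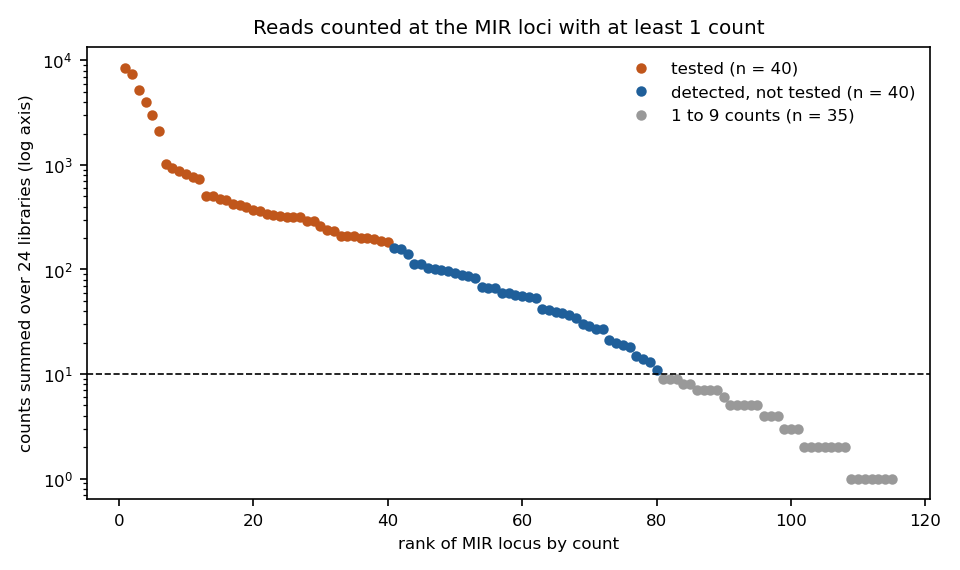
Reads summed over the 24 libraries (log axis) for the 115 MIR loci with at least 1 read, ordered by rank. The 40 tested loci are orange, the 40 detected but untested loci blue and the 35 loci with 1 to 9 reads grey, with the dashed line at 10, and the 8 highest loci held 69.0% of the 46844 reads.

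The 104 numbered families were detected unevenly. At least 1 locus was detected in 58 of them, and among the 26 families with more than 1 locus 7 had every locus detected, among them the 3 loci of miR160, of miR171 and of miR447. miR169, whose products act on NF-YA transcription factors, had 14 loci and none detected, with 9 reads in all. miR399, which acts on the phosphate regulator PHO2, had 6 loci and none detected, with 8 reads. The 6 loci of miR395 held 210 reads, all of them at MIR395E. By position, 63 of the 80 detected loci overlapped no other gene of the table, 10 lay in an intron of a gene on the same strand, 4 overlapped an exon of such a gene and 3 overlapped only a gene on the other strand.

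Reads at MIR loci made up their largest share in the 35S::PIF4 hAT libraries. On the CPM scale without TMM factors, they came to 91.8 to 105 in 35S::PIF4 nAT and 107 to 117 in 35S::PIF4 hAT. In the other 4 groups the range was 71.2 to 92.3, with medians of 76.0 in Col-0 nAT, 79.1 in Col-0 hAT, 79.9 in phyB nAT and 84.8 in phyB hAT. The 35S::PIF4 hAT libraries did not overlap any other group.

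MIR163, from which an unusually long microRNA is cut that acts on methyltransferase messengers, was the locus with most counts (chr1:24884066-24884396, no other gene overlapping), at a mean of 16.5 CPM over all libraries. MIR159B followed at 13.6 CPM, MIR447B at 10.2 CPM, MIR414 at 7.79 CPM, MIR776A at 6.27 CPM, MIR162A at 3.82 CPM, MIR171B at 1.83 CPM and MIR824A at 1.71 CPM. Together the 5 highest held 60.2% of all MIR reads. Per length the order changed: in the deposited FPKM (fragments scaled by gene length and depth), MIR414 was highest with a mean of 71.7, then MIR159B with 68.0, MIR776A with 53.2, MIR163 with 49.4 and MIR447B with 43.1. These FPKM values rest on annotated hairpins of 108 to 331 bases, while a primary transcript is longer.

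The first comparison asks how the wild-type pistil responded to warmth. In Col-0, 12 of the 40 tested loci were called higher at hAT and 7 lower, a call being an adjusted p under 0.05 with a change of at least 2-fold, that is 1 on the log2 scale. Over all genes tested 24.2% were called higher and 13.4% lower, and over the 1411 genes no longer than the longest tested locus 38.3% and 23.7%. The loci's share was close to that of all genes when higher and when lower, and below that of short genes. The median log2 fold change was 0.24 over the loci and 0.14 over all genes. When each library's trend of counts on gene length was taken out by an offset in the fit, 11 loci were called higher and 14 lower, and the median over the loci was -0.52. Over the short genes the median before the offset was 0.33. The loci lie at the short end of that trend, where its smoothing span of 0.3 also takes in longer genes. How closely the offset follows genes as short as the loci was not tested.

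**Figure D2:**
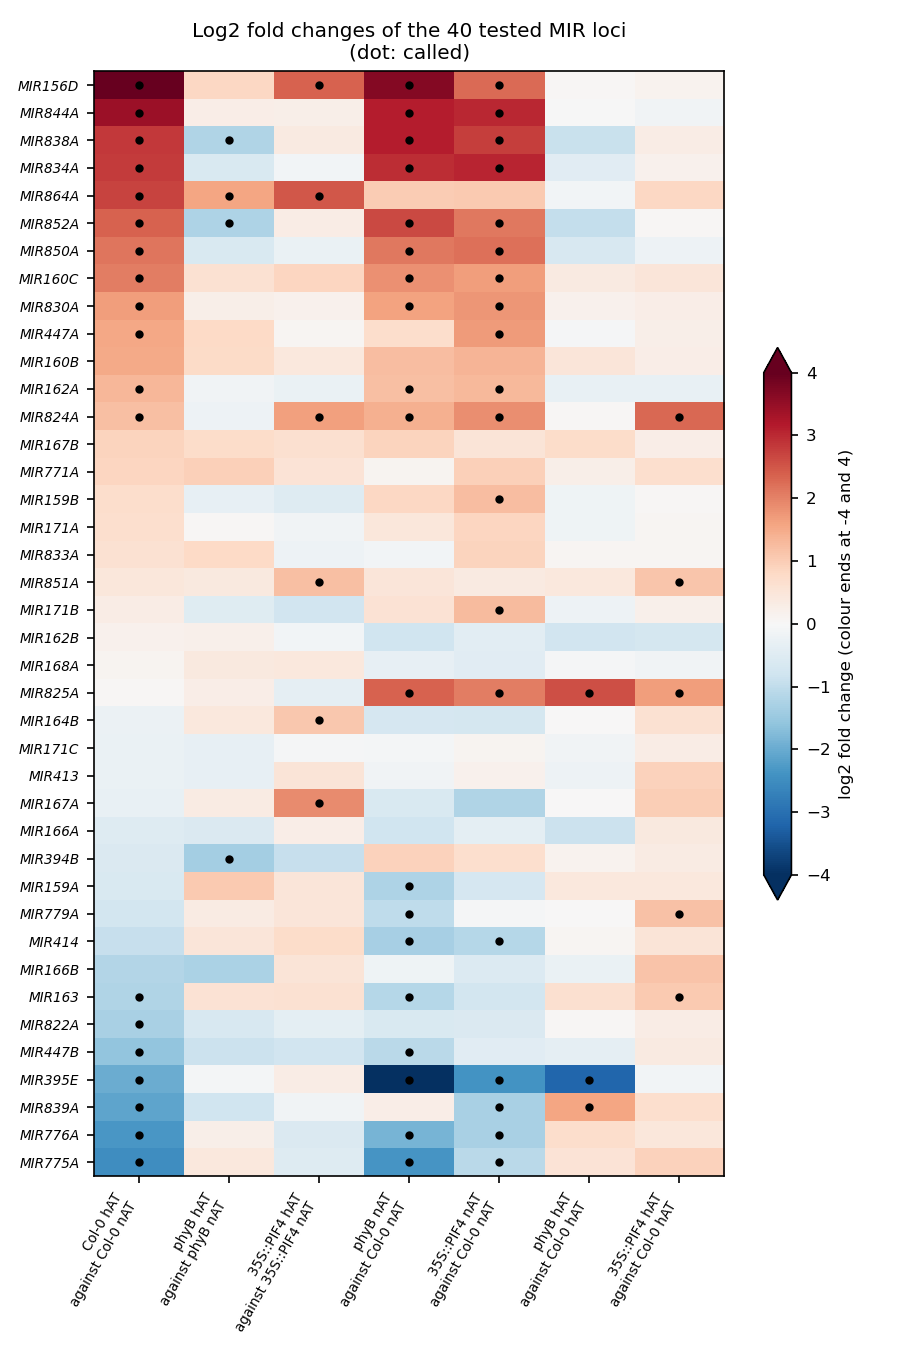
Log2 fold changes of the 40 tested MIR loci (rows, ordered by the Col-0 temperature response) in the 7 comparisons (columns), red for higher and blue for lower in the first-named group, with a dot where a locus was called. The 3 columns that use Col-0 nAT hold 19 dots each, and the other 4 hold 3 to 6.

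MIR156D (chr5:3456632-3456749, minus strand, inside an intron of AT5G10946) had the largest rise in Col-0. It gave 0, 0, 0.0674 and 0.0544 CPM in the Col-0 nAT libraries, which is 2 reads in all, and 0.967, 1.02, 0.888 and 0.581 CPM in the Col-0 hAT libraries, which is 83 reads. The groups did not overlap, and the fitted log2 fold change was 4.48 (SE 0.59, adjusted p = 1.25e-07). The ratio of the pooled CPM was 25.7 (95% counting interval 6.90 to 216), so the size of the rise is poorly fixed.

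MIR163 fell in Col-0, from 23.8, 24.8, 25.1 and 23.0 CPM at nAT to 10.6, 10.4, 10.7 and 10.6 CPM at hAT, with a log2 fold change of -1.19 (SE 0.12, adjusted p = 1.89e-09). The groups lay far apart, and the hAT replicates spanned only 10.4 to 10.7 CPM. MIR447B (chr4:1535426-1535661, minus strand), from a cluster with MIR447A and MIR447C, fell from 18.2, 22.4, 17.7 and 17.7 CPM to 6.73, 6.14, 6.43 and 6.08 CPM, a change of -1.58 (SE 0.11, adjusted p = 1.40e-12). MIR447A, named after its value was seen, went the other way, with 1.53 (SE 0.31, adjusted p = 8.41e-05). The largest falls were those of MIR775A (-2.50, SE 0.46, adjusted p = 2.19e-05), whose microRNA acts on a galactosyltransferase messenger, MIR776A (-2.33, SE 0.18, adjusted p = 4.13e-12), MIR839A (-2.12, SE 0.53, adjusted p = 7.25e-04) and MIR395E (-1.98, SE 0.44, adjusted p = 2.05e-04). MIR775A, MIR776A, MIR839A and MIR395E were each lower in every hAT library than in any nAT library.

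Several loci inside other genes rose with warmth in Col-0. Besides MIR156D these were MIR844A (3.41, SE 0.63, adjusted p = 2.20e-05), MIR838A (2.84, SE 0.34, adjusted p = 2.17e-08), MIR834A (2.78, SE 0.37, adjusted p = 1.24e-07), MIR852A (2.36, SE 0.52, adjusted p = 2.03e-04) and MIR850A (2.13, SE 0.42, adjusted p = 4.91e-05). MIR838A (chr1:28500-28706, plus strand) lies in an intron of DCL1, the enzyme that cuts the hairpins, and went from 0.208, 0.484, 0.270 and 0.0544 CPM to 1.62, 1.95, 1.69 and 1.63 CPM without overlap. DCL1 itself rose by 3.07 (SE 0.13, adjusted p = 5.91e-17) on the log2 scale. With the length offset MIR838A was at 2.35 and DCL1 at 1.33, both still calls. HULK1, a HUA2-like gene with an exon that overlaps MIR834A, rose by 3.21 (SE 0.15, adjusted p = 1.34e-16), the noncoding gene AT4G13495 around MIR850A by 2.50 (SE 0.17, adjusted p = 2.98e-13) and AT5G10946 around MIR156D by 2.88 (SE 0.25, adjusted p = 8.34e-11). The genes around the other two were not called, with 0.72 (SE 0.28, adjusted p = 0.0212) for AT2G23348, which holds MIR844A, and 0.12 (SE 0.07, adjusted p = 0.114) for AT4G14500, which holds MIR852A. MIR413 (-0.26) and MIR833A (0.59), which also overlap a gene on the same strand, were not called in Col-0. Reads from an intron of an unspliced messenger and reads from a primary microRNA transcript cannot be told apart in these counts.

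**Figure D3:**
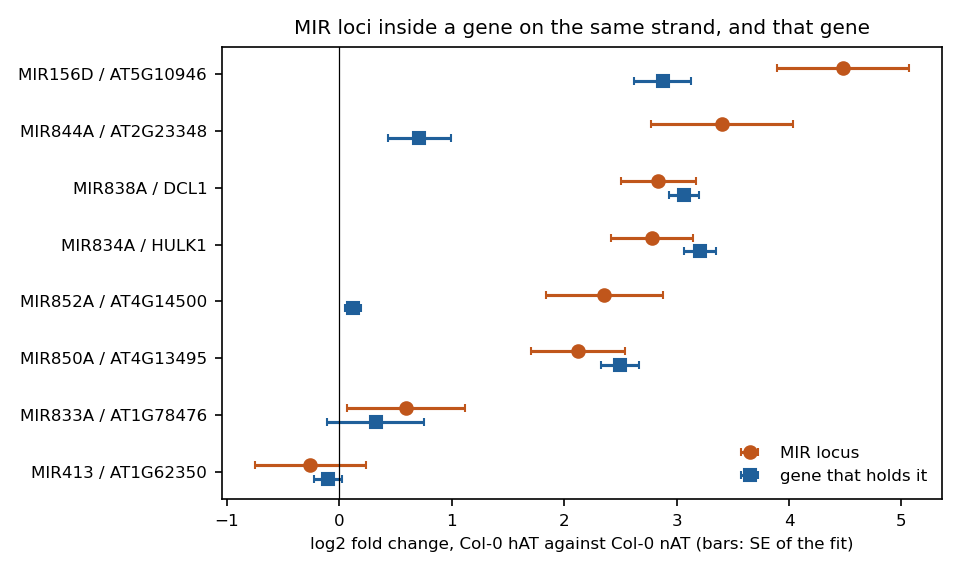
Log2 fold change in Col-0 at hAT against nAT (horizontal axis, bars give the SE of the fit) for the 8 tested MIR loci that lie inside a gene on the same strand (orange circles) and for that gene (blue squares). MIR838A and DCL1 sit close together at 2.84 and 3.07, while MIR852A at 2.36 is far from AT4G14500 at 0.12.

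Among loci with no overlapping gene, MIR864A (2.69, SE 0.73, adjusted p = 0.00157), MIR160C (2.05, SE 0.42, adjusted p = 8.09e-05), MIR830A (1.67, SE 0.27, adjusted p = 3.58e-06) and MIR162A (1.33, SE 0.22, adjusted p = 3.42e-06) were called higher at hAT, as was MIR447A, given above. Of these, MIR864A had 2, 0, 3 and 0 reads in the Col-0 nAT libraries. Col-0 hAT replicate 2 had 4 reads at MIR864A, and the groups overlapped in CPM. MIR162A, whose microRNA acts on the DCL1 messenger, went from 2.29, 2.34, 1.15 and 1.74 CPM to 4.80, 5.81, 4.06 and 4.10 CPM. With the length offset its change was 0.59 and no longer a call. MIR824A was also called higher (1.20, SE 0.45, adjusted p = 0.0165), but its groups overlapped and the call was lost when Col-0 hAT replicate 1, the highest of its group, was left out (0.78, adjusted p = 0.117), or without Col-0 nAT replicate 2 (0.98) or 4 (0.93). It overlaps an exon of AT4G24413 on the other strand, and whether the counting used strand is not stated.

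In phyB, 1 locus was called higher at hAT and 3 lower, where 4.63% and 3.46% of all genes and 17.9% and 8.36% of the short genes were. Under the length offset 0 were higher and 5 lower. MIR394B, whose microRNA acts on the F-box gene LCR, fell from 0.988, 1.34, 1.23 and 1.59 CPM to 0.135, 0.349, 0.852 and 0.562 CPM, a change of -1.37 (SE 0.34, adjusted p = 0.00224). MIR838A fell as well, from 2.69, 2.01, 1.86 and 1.91 CPM to 1.03, 1.00, 1.10 and 0.515 CPM (-1.19, SE 0.23, adjusted p = 1.95e-04), while DCL1 around it gave 0.09 (SE 0.11, adjusted p = 0.533). MIR852A changed by -1.23 (SE 0.37, adjusted p = 0.00952) and the gene that holds it by -0.02 (SE 0.07, adjusted p = 0.812). MIR864A was the locus called higher (1.58, SE 0.57, adjusted p = 0.0256), a call lost with the length offset (1.31, adjusted p = 0.0567) and without phyB nAT replicate 1 (1.28), phyB hAT replicate 1 (1.33) or phyB hAT replicate 2 (1.47). The phyB groups overlapped in CPM at this locus.

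In 35S::PIF4, 6 loci were called higher at hAT and 0 lower, where 8.5% and 2.48% of all genes and 28.6% and 3.54% of the short genes were. The loci's share higher, at 6 of 40, lay above that of all genes and below that of short genes. With edgeR 14 of the 40 loci had an adjusted p under 0.05 whatever their fold, 5 of the loci with a negative fold had an unadjusted p under 0.05, and DESeq2 called 1 locus lower. The length offset gave 4 higher and 3 lower, with MIR851A at 0.90 and MIR164B at 0.73 no longer calls, and leaving out 35S::PIF4 hAT replicate 3 gave 2 lower. MIR824A rose from 1.81, 1.90, 1.28 and 1.35 CPM to 3.92, 5.03, 6.88 and 4.26 CPM, a change of 1.65 (SE 0.28, adjusted p = 2.33e-05), and the groups did not overlap. MIR864A rose by 2.49 (SE 0.51, adjusted p = 1.94e-04), MIR156D by 2.37 (SE 0.37, adjusted p = 6.48e-06), MIR167A by 1.89 (SE 0.50, adjusted p = 0.00242), MIR851A by 1.22 (SE 0.31, adjusted p = 0.00206) and MIR164B by 1.07 (SE 0.28, adjusted p = 0.00245). MIR164B, whose microRNA acts on the boundary genes CUC1 and CUC2, stood close to the call's limit and fell under it without 35S::PIF4 nAT replicate 3 (0.96) or 35S::PIF4 hAT replicate 3 (0.96). MIR163 was higher at hAT in every library of both lines, by 0.59 in phyB and 0.59 in 35S::PIF4, with adjusted p values of 3.49e-04 and 1.37e-04 and neither reaching 2-fold.

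The temperature response itself was compared between genotypes as an interaction. Against the Col-0 response, that of phyB was called higher at 4 loci and lower at 11, where 10.6% and 21.6% of all genes were, and that of 35S::PIF4 was higher at 9 and lower at 12, against 11.8% and 19.4%. Under the length offset these splits became 9 and 8 for phyB and 10 and 8 for 35S::PIF4. MIR163 differed in both lines, by 1.78 (SE 0.17, adjusted p = 1.32e-09) in phyB and 1.79 (SE 0.17, adjusted p = 1.01e-09) in 35S::PIF4. MIR838A differed by -4.03 (SE 0.41, adjusted p = 2.94e-09) and -2.48 (SE 0.42, adjusted p = 8.74e-06), and MIR156D by -3.64 (SE 0.74, adjusted p = 1.02e-04) and -2.12 (SE 0.84, adjusted p = 0.0283). The MIR156D difference in 35S::PIF4 was not called without Col-0 nAT replicate 1 (-1.77) or 2 (-1.83), nor by DESeq2 (adjusted p = 0.0808) or with the length offset (adjusted p = 0.0963). For MIR824A the difference was called in phyB (-1.39, SE 0.57, adjusted p = 0.0315) and not in 35S::PIF4 (0.45, SE 0.56, adjusted p = 0.487). That call was lost without any 1 of 6 libraries, Col-0 nAT replicates 2, 3 and 4, Col-0 hAT replicate 1, phyB nAT replicate 1 and phyB hAT replicate 1 (adjusted p from 0.0533 to 0.121). Every one of these differences includes the Col-0 nAT libraries.

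At nAT the 2 lines were each compared with Col-0. In phyB 11 loci were called higher and 8 lower, against 21.2% and 11.9% of all genes, and in 35S::PIF4 14 were higher and 5 lower, against 19.3% and 12.2%. Of the short genes 27.1% were higher and 26.8% lower in phyB, and 20.4% and 31.8% in 35S::PIF4, where more of the short genes were lower and more of the loci higher. After the length offset they were 10 and 10 in phyB and 9 and 9 in 35S::PIF4. Without Col-0 nAT replicate 2 the count lower in 35S::PIF4 was 2, with MIR414 at -0.82 and MIR839A at -1.01 (adjusted p = 0.0712) no longer called, and MIR447B in phyB was at -0.98 in place of -1.06. MIR839A in 35S::PIF4 was also not called without 35S::PIF4 nAT replicate 2 or 3 (adjusted p = 0.0511 and 0.0513). Several loci inside other genes were again among those higher than Col-0 nAT, with MIR838A at 3.14 in phyB and 2.77 in 35S::PIF4, MIR834A at 2.94 and 3.04, MIR844A at 3.13 and 3.01, and MIR852A at 2.64 and 2.10 on the log2 scale. These share the Col-0 nAT libraries with the Col-0 temperature comparison, and with them the few reads given there. MIR159B, whose microRNA acts on MYB33 and MYB65, was at 18.9, 20.9, 16.6 and 21.8 CPM in 35S::PIF4 nAT and 8.80, 10.9, 6.33 and 7.29 CPM in Col-0 nAT (1.24, SE 0.13, adjusted p = 1.40e-09). MIR171B was higher in 35S::PIF4 too (1.27, SE 0.26, adjusted p = 7.47e-05), and after the offset MIR159B at 0.85 and MIR171B at 0.59 were under 2-fold. MIR779A was called lower in phyB (-1.02, SE 0.45, adjusted p = 0.0413), but not with a replicate block (adjusted p = 0.0548) nor without any 1 of 4 libraries, Col-0 nAT replicates 1 and 2 and phyB nAT replicates 1 and 4 (adjusted p from 0.0691 to 0.205). MIR775A in 35S::PIF4 (-1.07, SE 0.40, adjusted p = 0.0166) was not called without Col-0 nAT replicate 2 (-0.44), 35S::PIF4 nAT replicate 1 (-0.91) or 35S::PIF4 nAT replicate 4 (-0.99).

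MIR395E had the largest difference between genotypes. This locus (chr1:26272776-26272870, minus strand, no other gene overlapping) makes a microRNA that acts on ATP sulfurylase and sulfate transporter messengers and is known for its induction by sulfate shortage. It gave 1.80, 2.74, 0.606 and 1.52 CPM in Col-0 nAT and 0.0449, 0.0894, 0 and 0.0456 CPM in phyB nAT, that is 97 and 4 reads, with a log2 fold change of -5.07 (SE 0.64, adjusted p = 7.98e-08). The phyB hAT libraries gave 0, 0.174, 0 and 0 CPM, all 4 reads in replicate 2, against 0.542, 0.233, 0.465 and 0.387 CPM in Col-0 hAT (-3.16, SE 0.76, adjusted p = 0.00246). Neither pair of groups overlapped. In 35S::PIF4 the locus gave 0.211, 0.233, 0.272 and 0.557 CPM at nAT, below Col-0 nAT (-2.39, SE 0.46, adjusted p = 3.79e-05), and 0.369, 0.249, 0.566 and 0.366 CPM at hAT, where the difference from Col-0 hAT was -0.10 (SE 0.51, adjusted p = 0.922). The 4 listed miR395 targets were all tested and none was called in any of the 7 comparisons. Of these, APS4, an ATP sulfurylase gene, gave 0.23 (SE 0.08, adjusted p = 0.0149) in phyB at nAT and -0.03 (SE 0.08, adjusted p = 0.803) at hAT.

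At hAT fewer loci differed between the lines and Col-0. In phyB 2 were called higher and 1 lower, against 1.56% and 3.22% of all genes, and in 35S::PIF4 5 were higher and 0 lower, against 1.47% and 1.61%. Of the short genes 2.62% were higher and 15.2% lower in phyB, and 3.12% and 7.30% in 35S::PIF4. DESeq2 also called 0 loci lower in 35S::PIF4. With edgeR 7 loci had an adjusted p under 0.05 whatever their fold, and 0 of those with a negative fold had an unadjusted p under 0.05. The length offset left 2 called higher in 35S::PIF4, with MIR163 at 0.96, MIR851A at 0.93 and MIR779A at 1.00 (adjusted p = 0.0556) no longer calls. In phyB, MIR825A and MIR839A (1.58, SE 0.52, adjusted p = 0.0231) were the loci called higher, and MIR395E was the one called lower. In 35S::PIF4, MIR824A was furthest above Col-0 hAT, from 1.74, 0.744, 0.888 and 0.620 CPM to 3.92, 5.03, 6.88 and 4.26 CPM (2.31, SE 0.30, adjusted p = 2.02e-06). MIR825A, MIR779A (1.18, SE 0.39, adjusted p = 0.0302), MIR851A (1.10, SE 0.31, adjusted p = 0.0115) and MIR163 (1.06, SE 0.12, adjusted p = 2.36e-07) were the other four. The MIR779A call was lost without any 1 of 6 libraries, Col-0 hAT replicates 1, 2 and 3 and 35S::PIF4 hAT replicates 1, 3 and 4 (1.03 to 1.19), and that of MIR825A in 35S::PIF4 without Col-0 hAT replicate 3 (1.42, adjusted p = 0.0507). Leaving out that library, 3 loci were higher in 35S::PIF4. MIR839A in phyB was not called without Col-0 hAT replicate 1 or 4 or phyB hAT replicate 2 or 4 (1.30 to 1.44). A fit without the Col-0 nAT libraries, a check chosen after the data were seen, gave the same number of calls in each direction in these 2 comparisons and in the temperature responses of phyB and 35S::PIF4.

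MIR825A (chr2:11159660-11159845, plus strand, no other gene overlapping), for which no target is given here, was called higher in both lines at both temperatures. Col-0 gave 0.139, 0.0807, 0 and 0.163 CPM at nAT and 0.155, 0.0465, 0.0423 and 0.155 CPM at hAT, which is 6 and 10 reads. The phyB libraries gave 0.584, 0.626, 0.594 and 0.319 CPM at nAT and 0.763, 0.610, 0.536 and 0.703 CPM at hAT, and the 35S::PIF4 libraries 0.295, 0.632, 0.388 and 0.372 CPM and 0.277, 0.415, 0.283 and 0.366 CPM. No phyB or 35S::PIF4 library overlapped a Col-0 library. The log2 fold changes from Col-0 were 2.35 (SE 0.51, adjusted p = 1.70e-04) and 2.59 (SE 0.43, adjusted p = 4.35e-05) in phyB at nAT and hAT, and 2.05 (SE 0.52, adjusted p = 9.48e-04) and 1.66 (SE 0.48, adjusted p = 0.0131) in 35S::PIF4. In counts the phyB ratio at hAT was 6.21 (95% counting interval 3.16 to 13.6). Temperature moved it in no genotype past the threshold, with 0.04 in Col-0, 0.28 in phyB and -0.35 in 35S::PIF4.

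**Figure D4:**
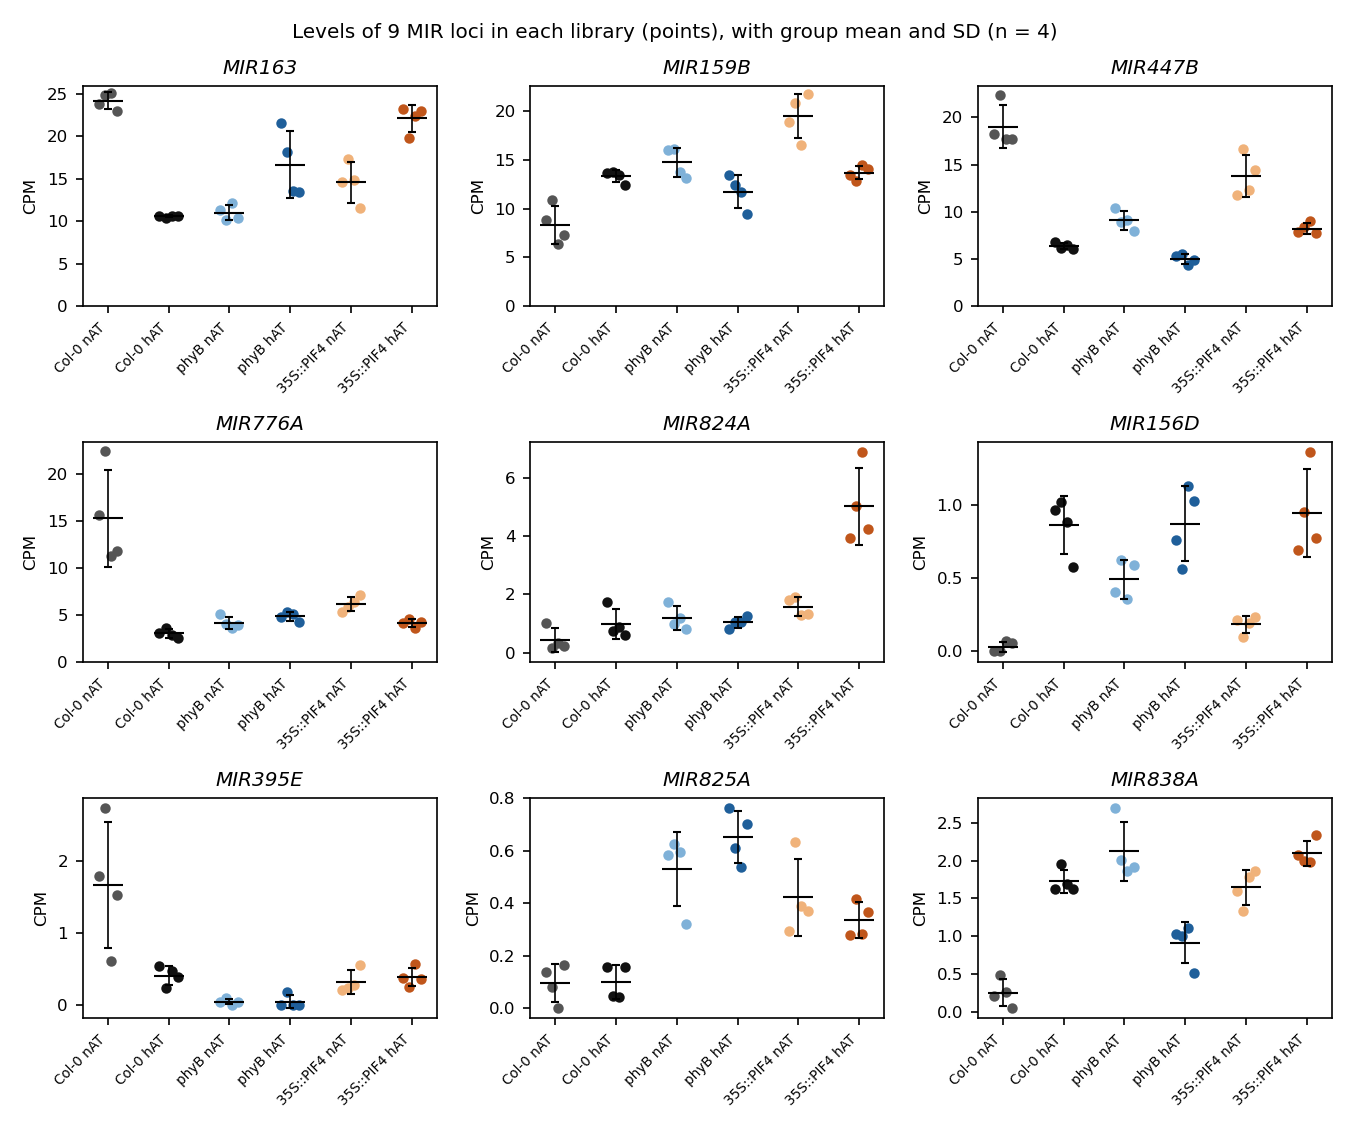
CPM of 9 MIR loci (panels, vertical axes from about 0 and scaled per panel) in each of the 24 libraries (points) of the 6 groups, with the group mean (line) and SD (bar, n = 4). MIR825A is at most 0.163 CPM in every Col-0 library and at least 0.277 CPM in every other one, and MIR824A is highest in the 4 35S::PIF4 hAT libraries.

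The families miR156 and miR157, miR160, miR167 and miR172 have known roles in flowers. MIR156D was the 1 tested locus of miR156 and miR157, whose 12 loci included 4 detected ones. Its levels were 0.404, 0.626, 0.356 and 0.592 CPM in phyB nAT and 0.763, 0.567, 1.14 and 1.03 CPM in phyB hAT, a change of 0.84 (SE 0.32, adjusted p = 0.0335) that stayed under 2-fold. In 35S::PIF4 it gave 0.211, 0.0998, 0.194 and 0.232 CPM at nAT and 0.692, 0.955, 1.37 and 0.778 CPM at hAT. The 3 hAT groups overlapped, with differences from Col-0 hAT of 0.04 (SE 0.29) in phyB and 0.14 (SE 0.29) in 35S::PIF4. At nAT both lines were above Col-0, by 3.68 (SE 0.65, adjusted p = 1.36e-05) and 2.25 (SE 0.78, adjusted p = 0.0111), the latter not a call with the length offset (1.65, adjusted p = 0.0823).

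MIR160C gave 0.139, 0.161, 0.202 and 0.109 CPM in Col-0 nAT and 0.426, 0.698, 0.592 and 0.852 CPM in Col-0 hAT, without overlap. Its changes at hAT in phyB and 35S::PIF4 were 0.60 (SE 0.29, adjusted p = 0.0951) and 0.87 (SE 0.29, adjusted p = 0.0134), and both lines were above Col-0 at nAT, by 1.82 (SE 0.43, adjusted p = 4.63e-04) and 1.68 (SE 0.43, adjusted p = 0.00112), the latter not a call with the length offset (0.86). At hAT its differences from Col-0 were 0.37 (SE 0.28, adjusted p = 0.345) and 0.49 (SE 0.28, adjusted p = 0.226). MIR160B pointed the same way in Col-0 without passing the test (1.52, SE 0.72, adjusted p = 0.0570). Leaving out Col-0 nAT replicate 1 or Col-0 hAT replicate 1 brought it past the threshold (1.91 and 1.82). It was called in none of the 7 comparisons, with changes at hAT of 0.77 in phyB and 0.42 in 35S::PIF4, and differences from Col-0 of 1.24 and 1.36 at nAT and 0.49 and 0.26 at hAT. MIR167A was called in 1 comparison, the 35S::PIF4 temperature response, with 0.0421, 0.200, 0.117 and 0.372 CPM at nAT and 0.784, 0.457, 0.660 and 0.824 CPM at hAT. At nAT it was -1.20 (SE 0.58, adjusted p = 0.0617) from Col-0, not a call here but one without 35S::PIF4 nAT replicate 4 (-1.70), with the length offset (-1.80) and by DESeq2 (-1.32). MIR167B was called in none of the 7 comparisons, and its change in Col-0 was 0.88 (SE 0.37, adjusted p = 0.0342), past 2-fold without Col-0 nAT replicate 2 (1.03). In phyB against Col-0 at nAT it passed the call without Col-0 nAT replicate 2 (1.04) or phyB nAT replicate 1 (1.08). All 5 loci of miR172 had at least 1 read, 4 were detected and none passed the filter.

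A further 40 loci were detected but too low for the main test, and a fit that kept every gene with 10 or more counts in all covered them. The examples here were chosen after their values were seen. MIR166F, one of the loci whose microRNA acts on HD-ZIP III factors, gave 0.554, 0.161, 0.809 and 0.653 CPM in Col-0 nAT and 0.0421, 0, 0.0388 and 0 CPM in 35S::PIF4 nAT, a log2 fold change of -4.44 (SE 0.77, adjusted p = 9.99e-06). Its 35S::PIF4 response to warmth was 3.03 (SE 0.86, adjusted p = 0.00484), from 2 reads to 18, a ratio of 10.2 (95% counting interval 2.45 to 91.0). MIR172B went from 0.716, 0.932, 0.388 and 0.372 CPM at nAT to 0.0461, 0.125, 0.141 and 0.0916 CPM at hAT in 35S::PIF4 (-2.54, SE 0.57, adjusted p = 5.21e-04), without overlap. MIR156A had no read in Col-0 nAT and 3 in Col-0 hAT, while phyB went from 5 reads at nAT to 30 at hAT (2.38, SE 0.89, adjusted p = 0.0387) and 35S::PIF4 from 1 to 21 (3.99, SE 1.18, adjusted p = 0.00714), a ratio of 23.9 (95% counting interval 3.84 to 988) in 35S::PIF4. By library the 35S::PIF4 reads were 0, 1, 0 and 0 at nAT and 3, 0, 9 and 9 at hAT, so these groups overlapped. In phyB they were 0, 3, 2 and 0 at nAT and 3, 4, 10 and 13 at hAT. The counting interval does not cover this spread between libraries.

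Genes of the microRNA pathway and listed targets were read in the same fit. The lists came from general knowledge, drawn up with earlier results of these data known. All 14 machinery genes were tested, and 6 were called higher and 0 lower in Col-0 at hAT, where 24.2% and 13.4% of all genes were, with a median of 0.87 on the log2 scale against 0.14 over all genes. The length offset left 2 called higher and 0 lower, with a median of 0.16. The 6 were DCL1 (3.07, SE 0.13, adjusted p = 5.91e-17), TGH (1.87, SE 0.13, adjusted p = 6.90e-13) and DDL (1.49, SE 0.09, adjusted p = 9.10e-14), of which TGH and DDL assist DCL1 in processing, AGO1 (1.22, SE 0.08, adjusted p = 5.84e-13) the effector, its relative AGO10 (1.08, SE 0.09, adjusted p = 1.99e-11) and the phosphatase gene CPL1 (1.05, SE 0.07, adjusted p = 2.29e-13). Both of the last were named after their values were seen. With the length offset DCL1 at 1.33 and DDL at 1.70 were still called, TGH at 0.99 and AGO1 at 0.13 were not, and AGO10 at -0.22 and CPL1 at -0.15 had the other sign. DCL1 was at 11.4, 4.68, 11.0 and 12.6 CPM in Col-0 nAT and 82.2, 84.5, 88.6 and 83.7 CPM in Col-0 hAT. No machinery gene was called in the temperature response of phyB or 35S::PIF4, and at nAT 5 were higher in phyB and 6 in 35S::PIF4 than in Col-0, against 21.2% and 19.3% of all genes. The length offset left 2 in each line. All of these calls involve Col-0 nAT, the group whose reads fell in shorter genes.

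Of 75 listed targets 71 were tested, and 11 were called higher and 6 lower in Col-0 at hAT, both smaller shares than the 24.2% and 13.4% of all genes, with a median of 0.28 on the log2 scale against 0.14 over all genes. The length offset gave 9 higher and 5 lower, with a median of -0.02. In phyB 2 were higher and 0 lower at hAT, where 4.63% and 3.46% of all genes were, and in 35S::PIF4 5 were higher and 3 lower, where 8.5% and 2.48% were. Among the 8 tested SPL targets of miR156 and miR157, 3 were called lower in Col-0 and 0 higher, with 1 of the 3 resting on a single library, against the same 13.4% and 24.2% of all genes. The length offset gave 4 lower and 0 higher, with SPL9 at -1.55 and SPL5 at -2.12. SPL9, which promotes the change to the adult phase and flowering, went from 209, 224, 190.5 and 214 CPM to 75.1, 75.1, 70.2 and 71.8 CPM in Col-0 (-1.52, SE 0.05, adjusted p = 1.64e-18). Its changes were -0.52 (SE 0.05, adjusted p = 2.23e-08) in phyB and -1.10 (SE 0.05, adjusted p = 5.02e-15) in 35S::PIF4. SPL5 changed by -2.04 (SE 0.10, adjusted p = 1.40e-15) in Col-0, with -0.97 (SE 0.10, adjusted p = 1.82e-08) in phyB and -0.98 (SE 0.10, adjusted p = 9.27e-09) in 35S::PIF4. SPL13A was at -2.13 (SE 0.83, adjusted p = 0.0223), has a near-identical copy, SPL13B, and its counts are uncertain. Its call rested on 1 library, with -0.76 (adjusted p = 0.462) when Col-0 nAT replicate 4 was left out. Col-0 nAT replicate 4 gave 12.7 CPM and the other three 1.55 to 2.34 CPM.

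The 3 ARF targets of miR160 were all tested, and none was called in Col-0, with ARF10 at 0.72 (SE 0.07, adjusted p = 7.81e-10), ARF16 at 0.71 (SE 0.08, adjusted p = 1.75e-08) and ARF17 at 0.58 (SE 0.08, adjusted p = 1.71e-07). With the length offset they were at -0.02, 0.21 and -0.20, so that the sign turned for ARF10 and ARF17. In 35S::PIF4 at hAT ARF17 was at -0.65 (SE 0.07, adjusted p = 3.82e-08), short of 2-fold. All 3 listed miR159 targets were called higher in Col-0 at hAT, MYB33 at 2.28 (SE 0.11, adjusted p = 2.60e-16), MYB65 at 1.53 (SE 0.18, adjusted p = 1.28e-08) and MYB101 at 1.47 (SE 0.31, adjusted p = 1.40e-04), the last a pollen-tube gene, beside the pollen markers given above. All 3 were still called with the length offset, at 1.61, 1.03 and 1.37. AGL16, the MADS-box target of miR824, went from 3.39, 2.02, 4.24 and 2.34 CPM to 38.3, 38.2, 39.1 and 38.5 CPM in Col-0 (3.68, SE 0.12, adjusted p = 1.94e-19, and 3.04 with the length offset). It also rose in 35S::PIF4 (1.24, SE 0.09, adjusted p = 8.16e-12), where MIR824A rose. In phyB its change was 0.71 (SE 0.09, adjusted p = 4.21e-07). At hAT its difference between 35S::PIF4 and Col-0 was 0.08 (SE 0.08, adjusted p = 0.582), while that of MIR824A was 2.31. Levels of a precursor and of a target messenger were measured in the same libraries, and cleavage was not.

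**Figure D5:**
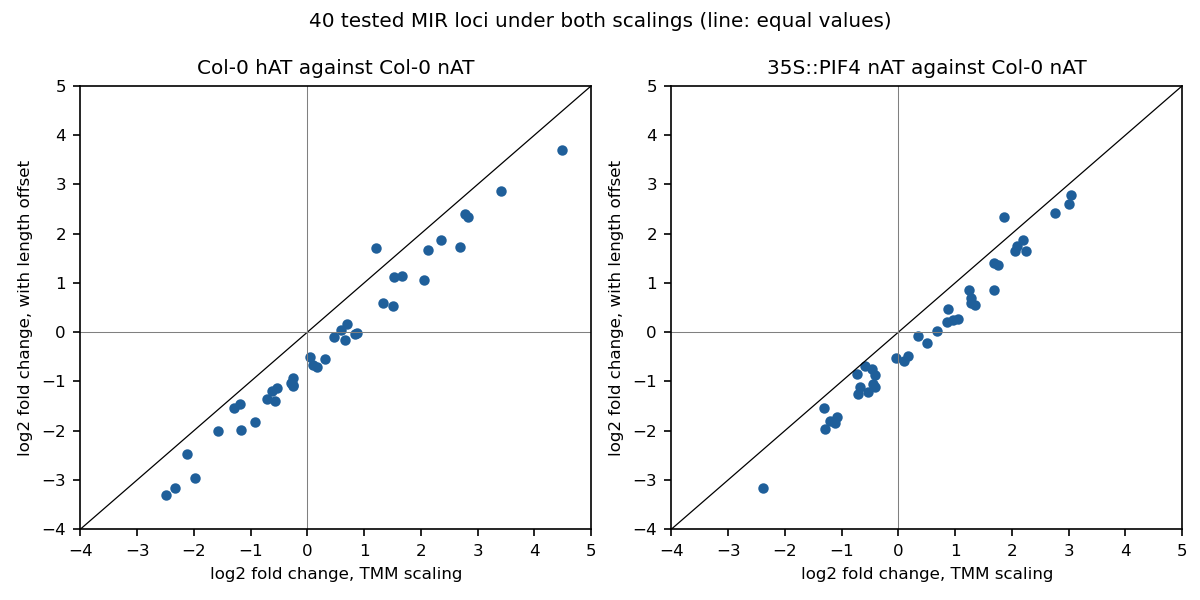
Log2 fold change of the 40 tested MIR loci under TMM scaling (horizontal axes) and with the gene-length offset (vertical axes), for Col-0 hAT against nAT (left) and 35S::PIF4 nAT against Col-0 nAT (right), with the line of equal values. All but 1 of the points in each panel lie below the line, and the median over the loci moved from 0.24 to -0.52 on the left and from 0.59 to -0.03 on the right. Over the 1411 genes no longer than the longest tested locus, the median under TMM scaling was 0.33 on the left and -0.52 on the right. How closely the offset follows genes as short as the loci was not tested.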

How the data were processed

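Polyadenylated RNA from 24 pistil samples was sequenced for the authors as paired reads of 150 bases. Per the study's methods the reads were trimmed and counted per gene with featureCounts on TAIR10 with the Araport11 annotation. For the aligner, the featureCounts version and the strand setting, nothing was given in the sources used here. Raw counts per gene are what the deposited count table holds, and the deposited FPKM table holds values the authors normalised by gene length and depth. Library totals were 18379748 to 30184035 counts. FPKM was used for levels between loci and in alternatives. Labels name pistils as the tissue and also ovules in the extraction text.

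Counts were fitted with edgeR 4.0.16 (R 4.3.3): filterByExpr by group, TMM scaling, 1 quasi-likelihood fit over the 6 groups and Benjamini-Hochberg adjustment over all 21312 genes tested. Fold changes are on the log2 scale, and a call needed an adjusted p under 0.05 and a log2 change of at least 1. The 7 comparisons and 2 interactions were tested, with 4 replicates a group. The study calls them biological replicates. Alternatives used DESeq2 1.42.0 size factors, its Wald test with independent filtering, no expression filter, a replicate block, a length offset (lowess span 0.3), the compared groups alone, each replicate left out, and limma 3.58.1 on log2(FPKM + 0.1) and log2(FPKM + 1). The fit was also run on simulated counts in which only Col-0 hAT was changed. That simulation held neither the length difference of Col-0 nAT nor the spread among its replicates, so it does not check the fit for these.

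The text names the 8 loci with the highest mean CPM, in each comparison up to 6 called loci per direction by size that reached 0.5 CPM and did not overlap, and every tested locus of miR156, miR157, miR160, miR167 and miR172. Up to 4 genes per list were named by size of change. Members and lists were chosen with earlier results of these data known. All 175 loci had the same coordinates in RefSeq TAIR10.1, from which sequences were read. Counting intervals are exact binomial (95%) and cover counting error only.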

Additional observations from a re-analysis of the deposited data

Results flagged for a closer look

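In 17 of 282 groups of 4 libraries, 1 library lay far from the other three, by Dixon's criterion, where chance alone gives about 1 in 20. At MIR loci these were MIR447B in Col-0 nAT replicate 2 (22.4 CPM, others 17.7 to 18.2), MIR834A in Col-0 nAT replicate 1 (0.0693 CPM, others 0.242 to 0.272), MIR851A in 35S::PIF4 hAT replicate 1 (0.968 CPM, others 1.66 to 1.79) and MIR395E in phyB hAT replicate 2 (0.174 CPM, others 0). The remaining MIR loci were MIR825A in phyB nAT replicate 4 (0.319 CPM, others 0.584 to 0.626), MIR160B in 35S::PIF4 nAT replicate 1 (0.505 CPM, others 0.232 to 0.272) and MIR160B in 35S::PIF4 hAT replicate 3 (0.0471 CPM, others 0.504 to 0.553). Among listed genes they were AGO1 in phyB hAT replicate 2 (584 CPM, others 554 to 557), AGO1 in 35S::PIF4 hAT replicate 2 (607 CPM, others 580.1 to 583), PHYB in phyB nAT replicate 1 (59.9 CPM, others 63.5 to 64.1), DCL1 in 35S::PIF4 hAT replicate 2 (83.8 CPM, others 80.0 to 80.3) and AGO2 in Col-0 hAT replicate 4 (39.2 CPM, others 38.9 to 39.0), and also TGH in phyB nAT replicate 2 (49.4 CPM, others 44.9 to 45.5), SPL5 in Col-0 nAT replicate 2 (55.1 CPM, others 36.4 to 39.2), PIF4 in 35S::PIF4 nAT replicate 2 (6.39 CPM, others 5.71 to 5.81), SPL13A in Col-0 nAT replicate 4 (12.7 CPM, others 1.55 to 2.34) and SPL13A in 35S::PIF4 hAT replicate 2 (5.07 CPM, others 1.06 to 1.33).

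The temperature response differed from that of Col-0 in the interaction test (edgeR, adjusted p under 0.05 and at least 1 on the log2 scale) for the named loci and genes that follow, each given as the log2 response of the line minus that of Col-0. In phyB it was higher for MIR163 (1.78), MIR414 (1.39), MIR776A (2.55) and MIR775A (2.93), and lower for MIR159B (-1.02), MIR162A (-1.48), MIR824A (-1.39), MIR830A (-1.43), MIR838A (-4.03), MIR834A (-3.40), MIR850A (-2.75), MIR160C (-1.46), MIR844A (-3.15), MIR156D (-3.64) and MIR852A (-3.58). Listed genes with a higher response in phyB were SPL5 (1.07) and SPL9 (1.00), and those with a lower one were AGO1 (-1.16), DCL1 (-2.98), DDL (-1.53), TGH (-1.68), MYB101 (-1.08), MYB33 (-2.00), MYB65 (-1.24) and AGL16 (-2.97). In 35S::PIF4 it was higher for MIR163 (1.79), MIR414 (1.65), MIR776A (1.75), MIR164B (1.31), MIR775A (1.99), MIR839A (1.97), MIR395E (2.29) and MIR167A (2.18), and lower for MIR159B (-1.21), MIR162A (-1.59), MIR171B (-1.07), MIR830A (-1.49), MIR838A (-2.48), MIR834A (-2.88), MIR850A (-2.39), MIR160C (-1.19), MIR844A (-3.16), MIR156D (-2.12) and MIR852A (-2.05). Listed genes with a higher response in 35S::PIF4 were SPL13A (2.80) and SPL5 (1.05), and those with a lower one were AGO1 (-1.17), DCL1 (-3.11), DDL (-1.22), TGH (-1.45), MYB33 (-2.06), MYB65 (-1.23), ARF16 (-1.09), ARF17 (-1.23) and AGL16 (-2.44). Both sets use the Col-0 nAT libraries.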

How the results depend on the processing

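Every named call in the 7 comparisons kept its direction under all alternatives, and DESeq2, its size factors and the fit without the expression filter kept all 71 of them. The length offset lost 13 of them and the fits on FPKM lost 4 (pseudocount 0.1) and 10 (pseudocount 1), while the compared groups alone lost 3 of the 54 they could test. Counts of loci called moved by more than 1.5 times as follows. With the length offset, 14 were lower in Col-0 at hAT (7 in the text), 0 higher and 5 lower in phyB at hAT (1 and 3), 3 lower in 35S::PIF4 at hAT (0), 9 higher and 9 lower in 35S::PIF4 at nAT (14 and 5), 2 higher in 35S::PIF4 against Col-0 at hAT (5), and 9 higher in the phyB interaction (4). DESeq2, with 75 to 85 loci tested in these comparisons, gave 12 lower in Col-0 at hAT, 2 higher in phyB at hAT, 1 lower in 35S::PIF4 at hAT, 13 lower in phyB at nAT (8), 9 lower in 35S::PIF4 at nAT, 4 higher and 2 lower in phyB against Col-0 at hAT (2 and 1), and 9 higher in the phyB interaction. Without the expression filter, 80 loci were tested, with 4 higher in phyB at hAT, 2 lower in 35S::PIF4 at hAT, 9 lower in 35S::PIF4 at nAT, 4 higher and 2 lower in phyB against Col-0 at hAT and 8 higher in the phyB interaction. The compared groups alone, with 26 to 32 loci tested in these comparisons, gave 0 higher in phyB at hAT, 7 higher in phyB at nAT (11), 9 higher in 35S::PIF4 at nAT, and 1 higher and 0 lower in phyB against Col-0 at hAT. The cause of these moves was not tested, apart from the numbers of loci and samples stated.

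Leaving out 1 replicate at a time gave 11 to 13 higher and 6 to 9 lower loci in Col-0 at hAT, 0 to 2 higher and 3 lower in phyB at hAT, and 5 to 7 higher and 0 to 2 lower in 35S::PIF4 at hAT. At nAT it gave 11 to 13 higher and 6 to 8 lower in phyB and 14 to 17 higher and 2 to 5 lower in 35S::PIF4 against Col-0, and at hAT 1 to 2 higher and 1 to 2 lower and 3 to 5 higher and 0 lower. The interactions gave 4 to 6 higher and 9 to 12 lower for phyB and 7 to 10 higher and 10 to 13 lower for 35S::PIF4. It lost 31 of 568 named calls and added 7 of 216. The count lower in 35S::PIF4 at nAT was 2 without Col-0 nAT replicate 2. Of 34 named interaction calls the length offset lost 7 and DESeq2 5, and of 54 calls at listed genes they lost 19 and 1. Counts over the gene lists with the length offset, chosen after the data were seen, took the machinery genes called higher in Col-0 at hAT from 6 to 2 and turned the sign of AGO10 (-0.22) and CPL1 (-0.15).

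Deviations of same-numbered replicates had correlations of -0.065 to 0.17. These values show no clear pairing by number, and they cannot exclude one. The replicate block gave 19 called loci in Col-0 at hAT, as in the text, and 17 in place of 19 in phyB at nAT, and it lost 1 named locus call, 1 named interaction call and 2 calls at listed genes. A library's floor was 0.0947 to 0.242 CPM. The 95 loci under 10 counts were not tested in the main fit, and differences at them are not described here.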
